A study of Oncorhynchus mykiss with 24 samples.

Results

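A set of 81 array features was higher in trout liver after diets with 17β-estradiol (E2), a high dose of indole-3-carbinol (I3C) or either dose of 3,3'-diindolylmethane (DIM). They are 81 of 4368 features measured, where a feature is a pair of adjacent spots, named here by its first spot. A feature belonged to the set if its mean log2 ratio against a vehicle pool was 0.6 or more in each of 4 diets: E2, I3C at 1500 ppm, DIM at 500 ppm and DIM at 1500 ppm. The members were thus chosen by the measured values in those 4 diets, which are described below without a test. Tests were run on the diets that the rule did not use, I3C at 500 ppm and β-naphthoflavone (BNF).

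The livers came from juvenile rainbow trout (Oncorhynchus mykiss) of the Mt. Shasta strain, aged 12 to 18 months. Diets held E2 at 5 ppm, I3C at 500 or 1500 ppm, DIM at 500 or 1500 ppm, or BNF at 500 ppm, in a casein-based Oregon test diet given for 12 days, with sampling on day 13. Each treatment had 2 tanks of 6 fish, and each diet gave 2 RNA samples, each hybridised in both dye orientations against the same pool, made from livers of 12 fish on a diet with 0.15% dimethyl sulfoxide. The labels do not say how many fish stand behind a treated sample or that its 2 replicates are separate tanks, so p-values measure only the spread between these samples. A pool as the only control leaves out the spread among control fish. In whole liver RNA, a change in the number of cells of a type and a change in RNA per cell cannot be told apart.

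In egg-laying fish, estrogen acts on hepatocytes through nuclear estrogen receptors and switches on the liver's output of yolk precursor and egg envelope proteins, also in juveniles and males. I3C is an indole of cruciferous vegetables that condenses in stomach acid to DIM and other products, and both have been described as estrogenic in trout. BNF is a synthetic flavone and a ligand of the aryl hydrocarbon receptor, a separate transcription factor that controls cytochrome P450 genes of the CYP1A family. The platform annotation named 49 of the 4368 features and 1 of the 81 members, so 80 members are described by spot number. Sequences of the spotted oligonucleotides were not used here.

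"Higher" means higher in fish on the diet than in the vehicle pool, in the likely direction only. The labels place Cy3 in channel 1 on every array but do not state the numerator of the ratio. If Cy5 was the numerator, the 81 members were lower, and 115 different features would meet the rule as higher. The 4 arrays behind the first E2 replicate and the first 500 ppm DIM replicate correlated negatively with the rest (median r from -0.704 to -0.543 within a dye orientation, against 0.196 to 0.773 for the other arrays), and no label settles their direction. The rule turns the sign of both samples. With their signs as deposited, the 2 replicates of each diet cancel, the members' median was -0.06 for E2 and -0.05 for DIM at 500 ppm, and 1 feature met the rule. After this turn, agreement between replicates over all features was lowest for BNF (r = 0.159) and I3C at 500 ppm (r = 0.373), against 0.464 to 0.851 for the 4 diets of the rule. Both ends of that range, 0.464 for E2 and 0.851 for DIM at 500 ppm, come from diets with a turned sample. With signs as deposited these 2 correlations are negative.

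The members were highest after DIM. Their median log2 ratio was 1.11 in E2 (range 0.61 to 5.09), 1.23 in I3C at 1500 ppm (0.61 to 5.04), 1.42 in DIM at 500 ppm (0.74 to 4.93) and 1.49 in DIM at 1500 ppm (0.64 to 5.17). These are the values that the rule used: a mean of 0.6 or more was reached by 81 of 81 members in each of these diets, against 2.61%, 2.77%, 3.02% and 3.66% of all features, in the same order. DIM at 1500 ppm held the highest of the 6 diet means for 53 of the 81 members, DIM at 500 ppm for 15, E2 for 7 and I3C at 1500 ppm for 6. In the 2 diets outside the rule the median was 0.49 in I3C at 500 ppm (-0.16 to 4.39) and -0.17 in BNF (-0.74 to 0.60). BNF held the lowest of the 6 means for 77 members and I3C at 500 ppm for 4. The floor of 0.6 in the 4 diets of the rule nearly forces the lowest mean into these 2 diets. It also favours the highest mean in the diets of the rule. The ranks were not counted over all features. Over all 4368 features the median lay between 0.01 and 0.07 in every diet. Uncentred, the median of all features moved to -0.337 in E2, -0.438 in I3C at 500 ppm and -0.343 in BNF, and the members' medians to 0.745, 0.0157 and -0.528, so the values above are relative to each array's median feature.

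**Figure D1:**
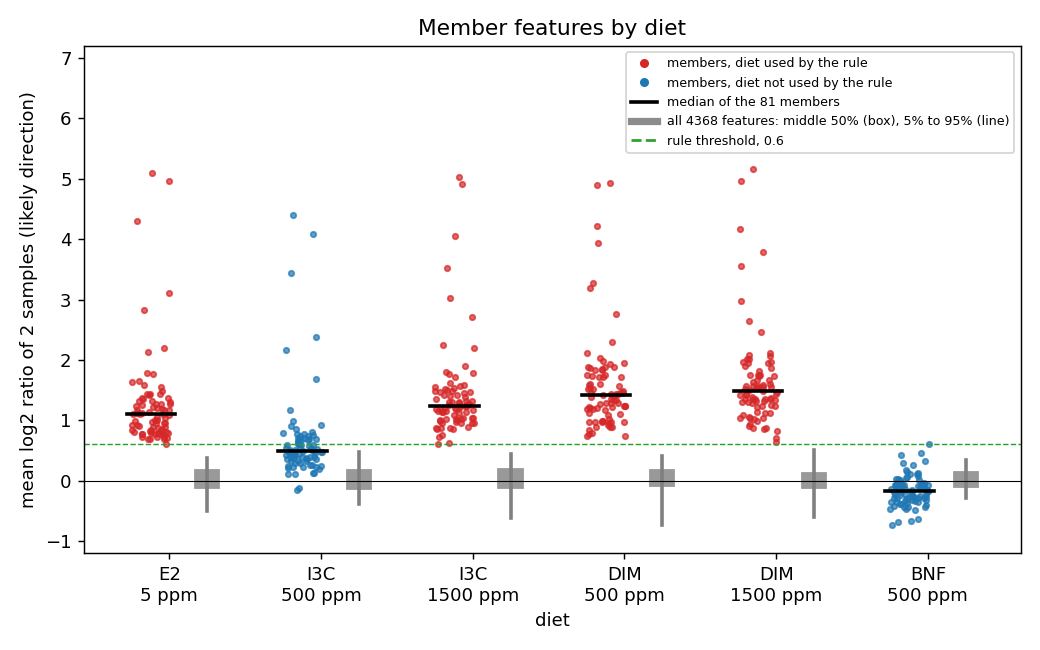
Each point is 1 of the 81 members, as the mean log2 ratio of 2 samples in 1 diet (vertical axis, likely direction); the black bar is their median, the grey box and line give all 4368 features, and the dashed line is the threshold of 0.6. Red diets chose the members; in blue, the median is 0.49 for I3C at 500 ppm and -0.17 for BNF.

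Most members changed by a moderate amount and a few by a large one. The mean log2 ratio over the 4 diets of the rule was below 1 for 14 members, from 1 to 1.5 for 39, from 1.5 to 2 for 20, from 2 to 3 for 3, and above 3 for 5. In both samples of each of these 4 diets all 81 members were above 0, as the rule nearly forces. All 4 arrays were above 0 for 78 members in E2, 74 in I3C at 1500 ppm and 81 at each dose of DIM. Where the rule did not choose the values, this held for 35 of 81 members in I3C at 500 ppm, with 26 more above 0 on 3 arrays. In BNF it held for 2. No share of all features was computed to set beside these array counts. The median absolute gap between a member's 2 replicates was 0.17 in E2, 0.19 in I3C at 1500 ppm, 0.16 in DIM at 500 ppm and 0.22 in DIM at 1500 ppm, against 0.30, 0.21, 0.17 and 0.39 over all features. These gaps are not independent of the rule, which sets a threshold on the mean of the replicates and, in E2 and DIM at 500 ppm, turns 1 of them. In the diets outside the rule the members' gap was wider than that of all features, 0.36 against 0.22 in I3C at 500 ppm and 0.28 against 0.21 in BNF.

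**Figure D2:**
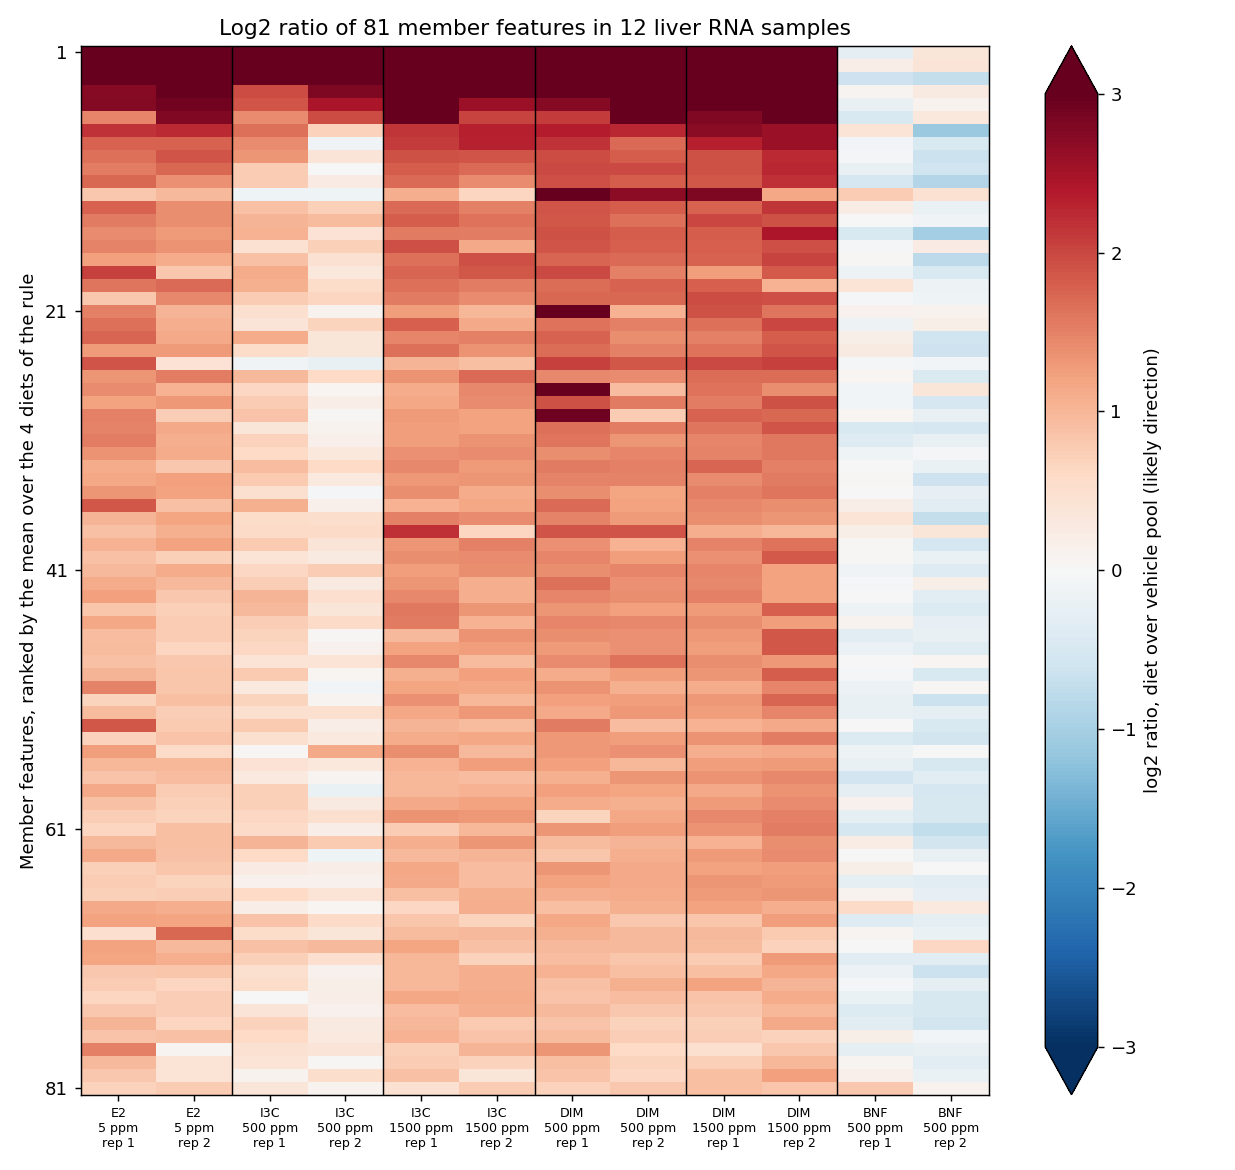
Rows are the 81 members, ranked by their mean over the 4 diets of the rule, and columns are the 12 samples; colour is the log2 ratio against the vehicle pool, with full colour at 3 and -3. The 5 rows at the top lie between 1.90 and 4.49 in the I3C 500 ppm samples, while the BNF means of all rows lie between -0.74 and 0.60.

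Feature 10020301 was the most strongly raised member, with a mean log2 ratio of 5.06 over the 4 diets, a 33.3-fold difference if the deposited logarithm is base 2. Its log2 ratio was 5.25 and 4.93 in E2, 5.16 and 4.92 in I3C at 1500 ppm, 4.68 and 5.19 in DIM at 500 ppm, and 5.07 and 5.27 in DIM at 1500 ppm. It was 4.49 and 4.30 in I3C at 500 ppm and -0.30 and 0.37 in BNF. The 10 samples of E2 and the indoles all lay above 4, and both BNF samples lay near 0. With signs as deposited its mean would be -0.161 in E2 and 0.253 in DIM at 500 ppm.

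Feature 12020713 was the next highest. It stood at 5.03 and 4.91 in E2, 4.96 and 4.87 in I3C at 1500 ppm, 5.04 and 4.76 in DIM at 500 ppm, and 4.69 and 5.24 in DIM at 1500 ppm. It was lower in I3C at 500 ppm, at 4.05 and 4.14, and stood at 0.21 and 0.38 in BNF. Between the 4 diets of the rule its means differed by less than the gap between the DIM 1500 ppm replicates.

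Feature 12041011 varied more between replicates. It was 4.84 and 3.77 in E2, 3.31 and 3.56 in I3C at 500 ppm, 3.56 and 4.55 in I3C at 1500 ppm, 4.88 and 3.57 in DIM at 500 ppm, and 3.84 and 3.73 in DIM at 1500 ppm. In BNF it was below 0 in both samples, at -0.61 and -0.72. Both I3C 500 ppm samples lay just below the lowest of the 8 samples from the diets of the rule.

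Features 6030211 and 4020613 were raised less in E2 than in DIM. Feature 6030211 averaged 3.12 in E2, 3.53 in I3C at 1500 ppm, 3.94 in DIM at 500 ppm and 4.17 in DIM at 1500 ppm, with 1.96 and 2.80 in the I3C 500 ppm samples and 0.08 and 0.26 in the BNF samples. Feature 4020613 averaged 2.83 in E2, 3.03 in I3C at 1500 ppm, 3.19 in DIM at 500 ppm and 3.56 in DIM at 1500 ppm, with 1.90 and 2.45 in I3C at 500 ppm and -0.23 and 0.10 in BNF. The remaining members of the 10 highest were 11040211, 7010211, 6021205, 10040303 and 8021305, at 2.64, 2.35, 2.09, 1.90 and 1.86 over the 4 diets. All 5 were below 0 on average in BNF.

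The single named member was feature 6030209, annotated as LOC100136761. Its log2 ratio was 1.76 and 1.40 in E2, 1.70 and 1.52 in I3C at 1500 ppm, 1.89 and 1.81 in DIM at 500 ppm, and 1.76 and 2.14 in DIM at 1500 ppm. It was 0.88 and 0.71 in I3C at 500 ppm, and 0.22 and -0.20 in BNF. The annotation gives the same symbol to 2 more features, 4040205 and 4040611, whose diet means ran from -0.26 to 0.11 and from -0.03 to 0.22. The 3 features thus disagree, and which of them reports the gene cannot be settled from these values. Feature 6030209 is spotted beside 6030211, one of the 5 highest members.

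**Figure D3:**
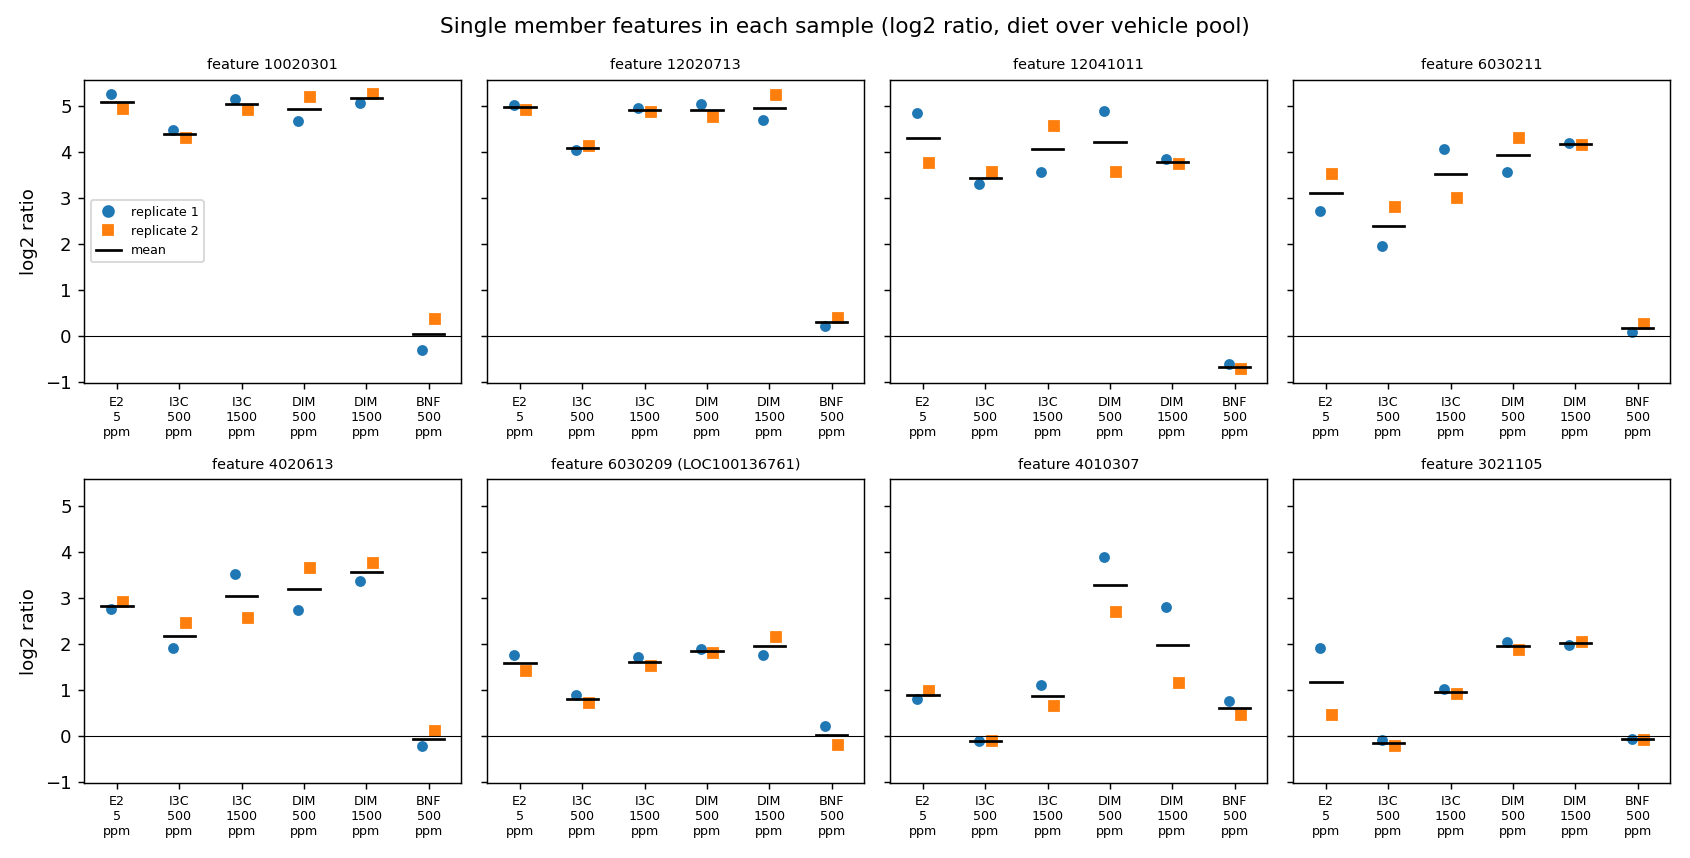
Log2 ratio of 8 members (1 panel each) in both replicates of 6 diets; circles are replicate 1, squares replicate 2 and bars their mean. The 5 highest members and LOC100136761 stay above 0 in both I3C 500 ppm samples and lie at -0.72 to 0.38 in BNF, while 4010307 and 3021105 lie below 0 in I3C at 500 ppm.

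A few members departed from the common order. Feature 4010307 was 3.87 and 2.68 in DIM at 500 ppm and 2.79 and 1.15 in DIM at 1500 ppm, but 0.80 and 0.97 in E2 and 0.87 on average in I3C at 1500 ppm. It was -0.13 and -0.12 in I3C at 500 ppm, and 0.75 and 0.45 in BNF, where its mean was the highest of any member. Feature 3021105 was 2.04 and 1.87 in DIM at 500 ppm, 1.98 and 2.05 in DIM at 1500 ppm, 1.01 and 0.90 in I3C at 1500 ppm, and 1.90 and 0.44 in E2. In I3C at 500 ppm it was -0.10 and -0.22, the lowest mean of any member there. These 2 were the only members below 0 in both I3C 500 ppm samples.

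Across the members, E2 stood below DIM. E2 minus DIM at 1500 ppm had a median of -0.37 on the log2 scale, was below 0 for 71 of 81 members and ran from -1.08 (feature 4010307) to 0.52 (feature 12041011). E2 minus I3C at 1500 ppm had a median of -0.13 and was below 0 for 62. DIM at 1500 minus 500 ppm had a median of 0.13 and was above 0 for 59. These differences use the values that chose the members and were not tested.

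The indole and its dimer can be set side by side at the same doses in ppm. Molar doses were not compared. At 500 ppm the members' median was 0.49 in I3C and 1.42 in DIM, and all 81 members were lower in I3C than in DIM, by 0.05 (feature 10010407) to 3.40 (feature 4010307). At 1500 ppm the medians were 1.23 in I3C and 1.49 in DIM, and 68 of 81 members were lower in I3C. Within I3C, all 81 members were higher at 1500 than at 500 ppm, by a median of 0.78. The gap between the I3C doses ran from 0.04 (feature 6021007) to 1.55 (feature 6021205). Since DIM at both doses and I3C at 1500 ppm had to reach 0.6 and I3C at 500 ppm did not, a gap in this direction is partly fixed by the choice of members, and it was not tested.

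The first test asked whether the members differed from the vehicle pool in I3C at 500 ppm, a diet that played no part in choosing them. Of the 81, 74 were above 0 in both samples, against 32.8% of all features, and 28 had a mean of 0.6 or more, against 3.18%. limma, with Benjamini-Hochberg adjustment over all 4368 features, called 14 members higher and 0 lower, against 0.412% of all features called higher and 0.343% called lower. The members made up 14 of the 18 features called higher. At an unadjusted p under 0.05, 56 members were higher and 0 lower, against 7.3% and 6.62% of all features. Like the diets of the rule, these ratios were taken against the same pool, so a feature that was low in the pool would be high in every diet. In this test and those below, the spread behind each SE and p was estimated over all 12 samples, including those of the rule. The members' median gap between replicates was 0.16 to 0.22 in the diets of the rule and 0.36 in I3C at 500 ppm. The SE and p are thus not independent of the choice of members.

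The 5 highest members led these calls. Feature 10020301 was higher by 4.39 ± 0.18 (log2 ratio ± SE, n = 2), a 21.0-fold difference, with a limma adjusted p of 9.79e-10. Feature 12020713 stood at 4.09 ± 0.16 (limma adjusted p = 5.92e-10), 12041011 at 3.44 ± 0.29 (1.21e-05), 6030211 at 2.38 ± 0.26 (0.000214) and 4020613 at 2.17 ± 0.24 (0.000214). Both samples were above 0 for each of them. Smaller members were called too: 9041201 at 0.98 ± 0.14 (limma adjusted p = 0.00253), 10010407 at 0.92 ± 0.16 (0.017), 7031201 at 0.91 ± 0.18 (0.0342), 2040305 at 0.76 ± 0.15 (0.0357) and LOC100136761 (feature 6030209) at 0.79 ± 0.16 (0.0357). Feature 11040211 was called at 1.68 ± 0.36 (limma adjusted p = 0.045). The calls of 7031201, 2040305 and LOC100136761 were lost without replicate 1 and without replicate 2, and those of 10010407 and 11040211 without replicate 2. With uncentred values the calls of 9041201, 10010407, 7031201, 2040305 and LOC100136761 were all lost, at log2 ratios of 0.51, 0.45, 0.44, 0.29 and 0.32. LOC100136761 lost its call in 8 of 12 alternatives, also with either spot alone and with both turned samples left out. Feature 2040305 lost its call in 7 of 12, also with the second spot alone and with both turned samples left out. The call of 7031201 was lost in 6, and those of 10010407 and 11040211 in 5 each. Feature 11040211 also lost its call with either spot alone, and 7031201 and 10010407 with the first spot alone.

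Of members with a mean over the 4 diets of the rule above 3, all 5 were called in I3C at 500 ppm, with log2 ratios from 2.17 to 4.39. Of the 39 members between 1 and 1.5, 3 were called, and their median in I3C at 500 ppm was 0.45. The replicates differed over the set in both diets outside the rule, which was not counted over all features. In BNF, 61 of 81 members were higher in replicate 1. In I3C at 500 ppm the members' median was 0.68 in replicate 1 and 0.32 in replicate 2, and 64 of 81 members were higher in replicate 1. Leaving out replicate 1 or replicate 2 leaves 1 sample of this diet, and fewer members were called in each case. Not all of the 14 calls were kept in either. Over the whole array, far more features were called without replicate 1 and fewer without replicate 2. Arrays scaled to a common spread left 1 call, feature 10020301, and signs as deposited left 0 at unchanged log2 ratios, through the pooled spread.

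The second test set BNF against the pool. limma called 0 of the 81 members higher or lower, against 0.0458% of all features called higher and 0% lower. At an unadjusted p under 0.05, 2 members were higher and 17 lower, against 3.71% and 3.14% of all features, and 36 members were below 0 in both samples, against 25.9%. In 8 members both samples were above 0, against 29% of all features. The members' median in BNF was -0.05 in replicate 1 and -0.30 in replicate 2, so the shift below 0 came mostly from replicate 2. The lowest member was 3040413, with -0.46 and -1.02 in the 2 samples and -0.74 ± 0.19 (log2 ratio ± SE) on average, not called (limma adjusted p = 0.342). The highest was 4010307 at 0.60 ± 0.31 (limma adjusted p = 0.773), the 1 member at 0.6 or more, against 0.549% of all features. The 95% interval of a member's BNF ratio, unadjusted, reached a median of 0.37 to either side. A mean as low as -0.74 was not called, so the count of 0 does not show that the members were unchanged. The fit of 24 arrays called 2 members lower and uncentred values 4.

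The third test compared I3C at 500 ppm with BNF directly. Neither diet was used by the rule, and the vehicle pool cancels in the difference, but the spread was again estimated over all 6 diets. The members were higher in I3C by a median of 0.70 on the log2 scale (0.49 in I3C, -0.17 in BNF), against a median of 0.00 over all features, and 77 of 81 were higher in I3C. Both I3C samples lay above both BNF samples for 67 members, against 14.9% of all features. limma called 6 members higher in I3C and 0 lower, against 0.137% of all features called higher and 0.0229% lower. These 6 were all of the features called higher on the array. At an unadjusted p under 0.05, 57 members were higher and 0 lower, against 3.34% and 2.52%.

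The called members were the 5 with the highest means over the 4 diets of the rule, and 3040413. Feature 10020301 differed by 4.36 ± 0.26 (log2 difference ± SE, 4.39 in I3C at 500 ppm and 0.04 in BNF, limma adjusted p = 1.37e-07). Feature 12041011 differed by 4.10 ± 0.41 (3.44 in I3C and -0.67 in BNF, limma adjusted p = 0.000108). Feature 12020713 differed by 3.80 ± 0.22 (limma adjusted p = 1.37e-07), 4020613 by 2.24 ± 0.34 (0.00845) and 6030211 by 2.21 ± 0.37 (0.0226). Feature 3040413 differed by 1.49 ± 0.27 (0.75 in I3C and -0.74 in BNF, limma adjusted p = 0.038), with part of the gap from the negative BNF value. LOC100136761 (feature 6030209) differed by 0.78 ± 0.23 and was not called (limma adjusted p = 0.313). The 4 members with a difference below 0 were 4010307 at -0.73, 6040601 at -0.31, 3040409 at -0.22 and 3021105 at -0.08, none called; 6040601 was named after its value was seen.

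Leaving out a replicate leaves 1 sample of its diet. Fewer members were called without I3C 500 ppm replicate 1 or BNF replicate 2, and more without I3C replicate 2 or BNF replicate 1. Over the whole array, far more features were called without I3C replicate 1, and most of them were not members. Feature 6030211 lost its call without I3C replicate 2 and without either BNF replicate, 4020613 without BNF replicate 1, and 3040413 without I3C replicate 1 and without BNF replicate 2. Features 10020301, 12020713 and 12041011 kept theirs in each case. Features 6030211 and 3040413 each lost their call in 7 of 14 alternatives. Both also lost it with the second spot alone and with the 2 diets fitted alone, and 3040413 with uncentred values. Arrays scaled to a common spread gave 0 calls, with a difference of 3.59 and a limma adjusted p of 0.321 for 10020301, and signs as deposited also gave 0.

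**Figure D4:**
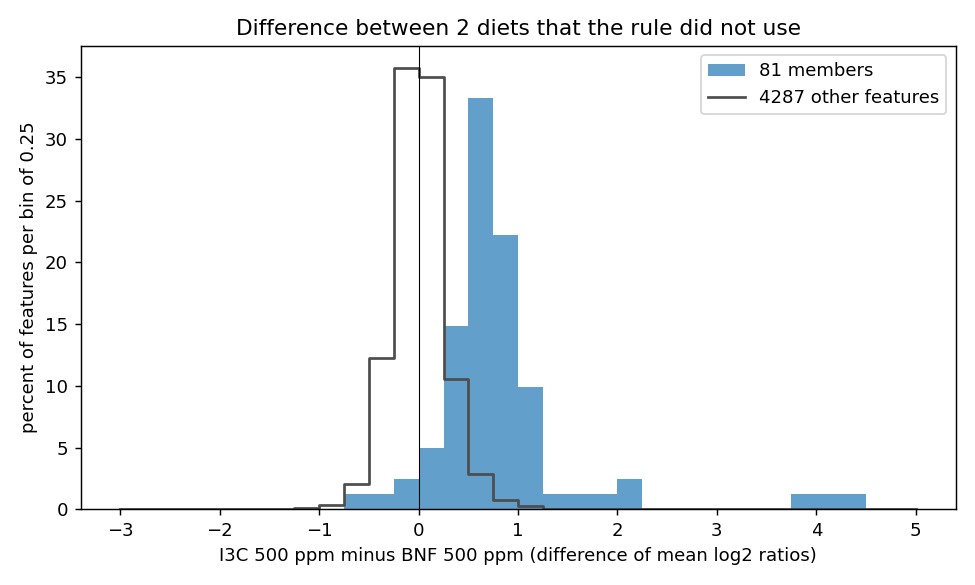
Distribution of the difference between I3C at 500 ppm and BNF (horizontal axis, mean log2 ratios, bins of 0.25) for the 81 members (bars) and the 4287 other features (line), each as a percent of its own total. The members' median is 0.70 and that of the other features is 0.00; the 3 bars near 4 hold the 3 highest members.

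Near the threshold the set has no sharp edge. The members with the smallest minimum over the 4 diets were 3040409 at 0.61 (in I3C at 1500 ppm), 3010411 at 0.61 (in E2) and 1041205 at 0.64 (in DIM at 1500 ppm). Just outside lay 3040713 at 0.58, 2020913 at 0.57 and 9041209 at 0.56. Of the 3 inside, 3040409 stood at 0.82 and 0.10 in BNF. A threshold of 0.5 gave 92 features and one of 0.8 gave 62.

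The members were spread over the array. Read from the digits of the spot numbers, the 48 print blocks have 13 rows and 14 columns, and 41 blocks held a member, with at most 4 in a block. The 2 spots of a member were both above 0 in 81 of 81 members in each sample of the 4 diets of the rule, whose values chose the members. In the diets outside the rule both spots were above 0 for 77 and 69 members in the 2 samples of I3C at 500 ppm, and for 24 and 14 in those of BNF. These spot counts were not made over all features. Within a sample the median gap between a member's 2 spots was 0.07 to 0.15, against 0.10 to 0.19 over all features. The mean of the 2 dye orientations, in which a treatment effect cancels, had a median absolute size of 0.15 to 0.66 over the members, against 0.21 to 0.68 over all features. Over the members it was one-sided. Its signed median, with the turned samples turned, was above 0 in all 12 samples, from 0.07 to 0.64. In I3C at 500 ppm it was 0.48 and 0.42, near the members' median log2 ratio of 0.49 there. This component cancels in the dye swap average.

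Gene lists for the tissue and the agents touched no member. Only 49 of the 4368 features and 1 of the 81 members had a name, and that member is on no list. The overlap of 0 thus says nothing about the 80 members without a name. Of 32 symbols of estrogen-responsive liver genes, 0 matched a named feature. The aryl hydrocarbon receptor list had 1 feature, cyp1a3, a cytochrome P450 of that receptor's battery. It stood at 0.06 in E2, and at 0.17 and 0.20 in I3C at 500 and 1500 ppm. In DIM it was 0.26 and 0.14 at these doses. In BNF it was 0.10, below every indole diet. Whether the BNF diet acted on this receptor was not tested. Named features for hepatocytes (ambp, a plasma protease inhibitor precursor, and antiprot1) numbered 3. Their diet means were -0.29 to -0.25 in E2, -0.61 to -0.16 in I3C at 500 ppm, -0.79 to -0.73 in I3C at 1500 ppm, -1.11 to -1.01 in DIM at 500 ppm, -1.02 to -0.58 in DIM at 1500 ppm and -0.01 to 0.17 in BNF. The red cell list had 1 feature, LOC100135826, at -0.75 to -0.51 in E2 and the indoles and -0.02 in BNF. The matrix list had 3 features (col1a2, a collagen chain, and sparc), from -1.06 to 0.41. Chaperones had 5 named features, from -0.77 to 0.05 in E2, -0.17 to 0.50 in I3C at 500 ppm, -0.52 to 0.11 in I3C at 1500 ppm, -1.06 to 0.30 in DIM at 500 ppm, -0.74 to 0.04 in DIM at 1500 ppm and -0.03 to 0.52 in BNF. Lipid metabolism had 2 and ribosomal proteins 1. Lists of leukocyte and exocrine pancreas markers had 0 named features. limma called 0 of these list features in the 3 tests above, and their part in the members' values was not tested. As the files give ratios, whether a marker is present or absent in the tissue could not be checked.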

How the data were processed

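Liver RNA from 12 treated samples was compared with 1 vehicle pool on 24 arrays read in 2 colours, scanned with a ScanArray and read with QuantArray, per the labels. The authors deposited 1 value per spot for 8736 spots. The sources used here do not give the background correction, normalisation, log base or numerator. In the deposited values, 23 columns are taken as log2 ratios (with natural logs, changes would be larger). The deposited column of BNF replicate 1 with treated RNA in Cy5 holds linear ratios (median 1.01), whose log2 was used. Array medians ran from -0.814 to 1.05.

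Each array was centred on its median, the 2 adjacent spots averaged (median correlation 0.87) and the dye swap averaged per sample. As the member rule says, signs were turned for replicate 1 of E2 and of DIM at 500 ppm. All 4368 features in the 12 samples entered a limma 3.58.1 fit (R 4.3.3) with a mean for each diet and moderated variances. Features are called where p, adjusted by Benjamini-Hochberg over all of them, is under 0.05. Precision is limited by 2 samples per diet, their spread and the single pool; read depth does not apply to arrays. No filter on dim spots was possible with ratios. Code was tested on simulated data. The members and lists were chosen with earlier results of these data known. Named in the text are the annotated member, the 10 highest members, the up to 10 smallest p per test among called members, the 3 features on either side of the threshold and each diet's extreme members. Symbols come from the platform annotation (98 spots, 32 symbols), and 27 of its 33 Entrez IDs matched the RefSeq genes of USDA_OmykA_1.1. Alternatives were uncentred values, arrays scaled alike, single spots, signs as deposited, both turned samples left out, a replicate block, array weights, a fit of 24 arrays, the compared diets alone, and single replicates left out.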

Additional observations from a re-analysis of the deposited data

Results flagged for a closer look

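The effect of I3C at 500 ppm and that of BNF, both against the same vehicle pool, differed by a direct limma test in 6 of the 81 members. Over all features, 0.137% were called higher in I3C and 0.0229% lower. The member count was 0 with arrays scaled alike and 0 with signs as deposited. The calls of 6030211 and 3040413 were each lost in 7 of 14 alternatives. The log2 differences, I3C minus BNF, were 4.36 for feature 10020301, 4.10 for 12041011, 3.80 for 12020713, 2.24 for 4020613, 2.21 for 6030211 and 1.49 for 3040413, each higher in both I3C samples than in both BNF samples. With 2 samples per diet, no diet was large enough to test single samples as outliers.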

How the results depend on the processing

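The count of members was 77 to 83 without single replicates, 49 uncentred and 1 with signs as deposited, and within 1.5 times the reported 81 under the other alternatives. For I3C at 500 ppm against the pool, 14 members were called, among 33 features called in either direction. Uncentred, 7 members were called among 818 features. Arrays scaled alike left 1 member among 1, and the first or second spot alone 8 among 14 and 9 among 22. Signs as deposited left 0 among 0. Leaving out both turned samples gave 9 among 21, the fit of 24 arrays 27 among 89, and a fit of this diet alone 35 among 250. A fit without 1 replicate gives the single remaining sample the spread of the other diets. For BNF, 0 members were called among 2 features. This became 4 among 41 uncentred and 2 among 17 in the fit of 24 arrays, those members all lower. For I3C at 500 ppm minus BNF, 6 members were called among 7 features. This became 0 among 0 with arrays scaled alike and with signs as deposited. With array weights it was 10 among 13, and in the fit of 24 arrays 20 among 34. With signs as deposited only the pooled spread changed these 3 comparisons; for the other settings the cause was not tested. The direction of the called features named in the text held under every alternative run. The replicate numbers pair the samples by no label, and deviations of same-numbered samples correlated at -0.601 to 0.459 over 15 pairs of diets. With a replicate block the counts were 14, 0 and 6, sharing 12 of 14 and 6 of 6 calls. All signs turned, chosen after seeing the data, gave 115 members, 0 of them shared.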

Other observations

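The gaps between replicates ran together in some members; the following features were picked after their values were seen. For 6030211, 4020613 and 11040211, replicate 1 minus replicate 2 was -0.79, -0.14 and -1.33 in E2, -0.84, -0.55 and -0.53 in I3C at 500 ppm, 1.06, 0.95 and 1.38 in I3C at 1500 ppm, and -0.73, -0.91 and -1.31 in DIM at 500 ppm. All 3 thus had the lower value in replicate 1 of E2, of I3C at 500 ppm and of DIM at 500 ppm, and the higher value in replicate 1 of I3C at 1500 ppm. Feature 12041011 ran the other way in 3 of these diets, at 1.07 in E2, -0.99 in I3C at 1500 ppm and 1.31 in DIM at 500 ppm, and stood at -0.25 in I3C at 500 ppm. The signs for E2 and DIM at 500 ppm rest on the turned samples.

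In DIM at 500 ppm, 3 members were far higher in replicate 1 than in replicate 2: 11011201 at 3.14 and 0.92, 8030313 at 3.19 and 1.04, and 1041307 at 2.92 and 0.76. Of the 81 members, 6 had a gap over 1 between the replicates of that diet, 7 in E2, 3 in I3C at 1500 ppm and 1 in DIM at 1500 ppm. In the diets outside the rule there were 2 in I3C at 500 ppm and 2 in BNF. No share of all features was computed for such gaps.

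Some neighbours of the highest members were raised as well, and others were near 0 or low. Feature 11040209, beside 11040211, stood at -0.87 over the 4 diets of the rule, and 4020713, in the row below 4020613, at -0.57. Feature 12020711, beside 12020713, had a mean log2 ratio of 0.80 over the 4 diets of the rule without being a member. The features in the rows above and below 12020713 stood at 0.37 and 0.59, also not members. Feature 10020401, in the row below 10020301, was a member at 1.11, as was 10040301, beside 10040303, at 1.15. The neighbours of 12041011 lay from -0.03 to 0.15. Beside 6030211 stood the LOC100136761 feature at 1.75 on one side and a feature at 0.0055 on the other. Of the 81 members, 6 had another member beside them in the row, and no share to set beside this count was computed. Whether signal spread between spots was not tested.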
